A study of Mus musculus with 12 samples.

Results

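The D-type cyclins Ccnd1, Ccnd2 and Ccnd3, their kinases Cdk4 and Cdk6, the Ink4 inhibitors Cdkn2a, Cdkn2c and Cdkn2d, and the Cip/Kip inhibitors Cdkn1a and Cdkn1b were followed while adherent neural stem (ANS) cells of the mouse differentiated. These 10 genes, of 22609 counted, were taken by name as the core of the G1 control step. All 10 passed the filter on low counts in every comparison.

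ANS cells are neural stem cells grown attached to the dish, derived here from normal mouse embryonic brain at E14.5. RNAseq libraries came from polyadenylated RNA at 4 time points. T0 cells (3 libraries) proliferated in growth medium with FGF2 and EGF, each at 20 ng/ml, and T1 cells (3 libraries) had spent 2 days in medium D1, with FGF at 10 ng/ml and EGF at 2 ng/ml. T2 cells (4 libraries) were taken 2 days after the change to medium B, which held FGF2 at 10 ng/ml and BDNF at 20 ng/ml, and T3 cells (2 libraries) 10 days after that change. The title of the T3 samples calls them GAD+. The labels call T0 fully proliferating and T2 without proliferation. No altered allele is named for any group, every medium held an FGF, and the series is an in vitro model of GABAergic neuron differentiation. The change of medium, the time in culture and the replating between media cannot be told apart. The design text calls the libraries biological replicates. Which libraries shared a culture was not given in the sources used here, so the p-values measure the spread between these libraries.

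A cell in G1 commits to another round of DNA replication when cyclin D, bound to Cdk4 or Cdk6, and then cyclin E, bound to Cdk2, phosphorylate the pocket proteins Rb, p107 and p130. E2F factors are thereby released and switch on the genes of S phase. Transcription of the D cyclins follows mitogens such as FGF and EGF, Ink4 proteins bind Cdk4 and Cdk6 directly, and Cip/Kip proteins bind cyclin-CDK complexes. In the developing brain G1 lengthens as progenitors turn to making neurons, and p27Kip1 is known for its part in the exit of neuronal precursors from the cycle.

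Between 8910724 and 16631614 reads per library fell on genes (median 12601169), and levels are given below as CPM, the counts scaled to library size or, where genes are set against each other, as FPKM, which is also divided by transcript length. T0 replicate 3 stood apart before any test. Compared by chi-square, with 1 per gene standing for sampling noise, it gave 96.4 and 99.9 against the other T0 libraries, which differed from each other by 3.17. Each member's result against T0 is therefore given with and without it. Library pairs within T1, T2 and T3 gave 5.13 to 32.4, so T0 replicates 1 and 2 were the closest pair. The SEs and calls without T0 replicate 3 take the T0 spread from that close pair alone. T0 replicate 3 also had 13.3% of its reads aligned once outside genes, against 19.6% and 19.9% in replicates 1 and 2. Its share of non-unique alignments was 39.0%, against 34.0% and 34.6%. Whether this bears on its levels was not tested. Of the marker lists, the summed level of 6 neuron genes was 13.9 to 44.7 CPM at T0 and 387 to 780 CPM in the later groups, with Stmn2 at 0 in every T0 and T2 library. The 6 neural progenitor genes summed to between 4963 and 7431 CPM, mostly from Vim, Fabp7 and Nes. Hes5 among them fell from a mean of 48.7 CPM at T0 to 14.51 CPM at T1 and 13.7 CPM at T2, and Vim fell at T2 (edgeR). Nes, Sox2, Pax6 and Fabp7 were not called at T1 or T2 with all libraries. Without T0 replicate 3, Fabp7 was called higher at T1 and T2 (log2 fold change 1.37 and 1.23) and Nes at T1 (0.59). Vim was then called lower at T1 too (-0.49), and Sox2 and Pax6 were not called. The summed level of the 6 oligodendrocyte lineage genes ran from 3183 to 3621 CPM at T0 and from 5009 to 5958 CPM at T3. None of them was called at T3 against T0 with all libraries. Without T0 replicate 3, Pdgfra, Olig1 and Olig2 were called higher at T3 (2.39, 0.77 and 0.64) and Sox10 lower (-3.62). The 6 astrocyte genes summed to 978 and 1027 CPM in T0 replicates 1 and 2 and to 635 to 1075 CPM later, but to 253 CPM in T0 replicate 3, which was also the T0 library with 13.9 CPM of neuron genes against 44.7 and 43.5. Gfap had 7 counts in that library and 1958 and 2144 in the other T0 libraries. No astrocyte gene was called at T3 against T0 with all libraries. Without T0 replicate 3, Gfap, Aqp4, Aldh1l1 and Gja1 were called lower at T3 (-2.35, -1.58, -1.96 and -1.17) and S100b higher (0.65). The microglial, endothelial and mesenchymal lists each summed to at most 2.99 CPM. In such bulk RNA, fewer cells of a type and less RNA per cell cannot be told apart, and the part of these marker changes in the results below was not tested.

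The members that fell by T1 were Ccnd1, Ccnd2, Cdkn2a, Cdkn2c and Cdkn1a, 2 of the D cyclins and 3 of the 5 inhibitors, while Cdk4, Cdk6 and Cdkn1b were not called. The quasi-likelihood test of edgeR, with p-values adjusted by Benjamini-Hochberg over all genes tested and a threshold of 0.05, called 5 of 10 members lower and 0 higher, beside 16.8% of all genes lower and 15.1% higher. At T2, 4 members were lower (Ccnd1, Ccnd2, Cdkn2a and Cdkn2c) and 1 was higher (Ccnd3), beside 21.8% and 21.4% of all genes. At T3, 1 was lower (Cdkn2a) and 0 higher, beside 1.41% and 3.31% of all genes.

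Leaving out T0 replicate 3, edgeR called 6 members lower at T1 and 2 higher, where 24.9% and 25.2% of all genes were called. At T2 the counts were 5 lower and 2 higher (25.3% and 26.7% of all genes), and at T3 they were 3 lower and 2 higher (8.49% and 9.94% of all genes). From T1 to T2, 0 members were called lower (0.0565% of all genes) and 1 higher (0.573% of all genes), and from T2 to T3 again 0 lower (0.691%) and 1 higher (0.5%). The first of these was Cdkn1a and the second Ccnd1. A further fit from T1 to T2 took the replicate number as a block, an uncertain pairing read from the data and not from the labels. It called 3 members higher (Cdkn1a, Ccnd1 and Ccnd2) and 0 lower, beside 1.51% and 0.476% of all genes. For T1, T2 and T3 the median log2 fold change over the members was -0.72, -0.52 and -0.44, and over all genes tested it was -0.0082, 0.0023 and -0.015.

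**Figure D1:**
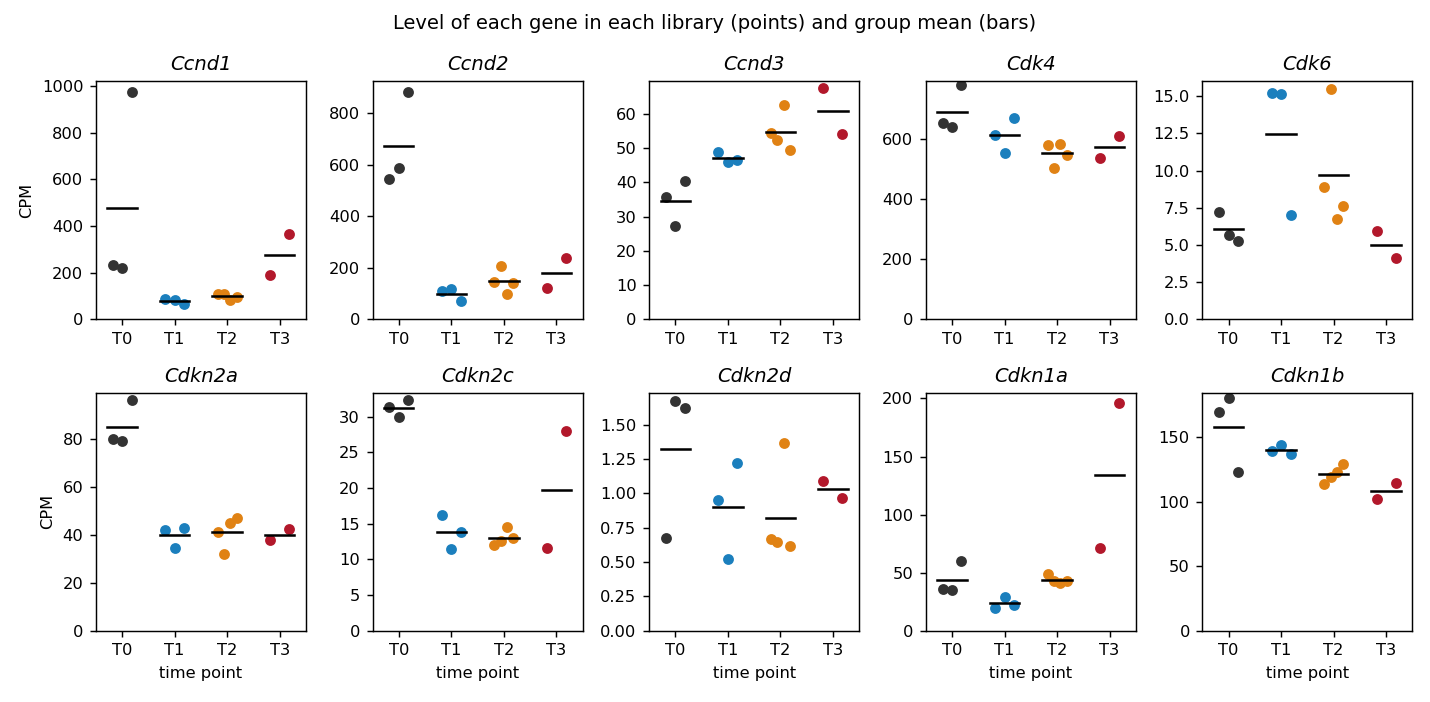
Level of each of the 10 genes (vertical axis, CPM, from 0) in every library (points) by time point, with a bar at the group mean. Ccnd1 in T0 replicate 3 lies at 976 CPM, far above the other libraries, Ccnd2 at T0 lies above every later library, and Ccnd3 at T0 lies below them.

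The D cyclins carry near their first residues the LxCxE motif, through which they contact pocket proteins. Its codons are shown because they are what the 3 cyclins share as partners of Rb, while their RNA levels took different courses. Each line gives 30 coding bases read 5′ to 3′ on the coding strand from NCBIM37 (mm9) with GENCODE vM1, and capitals mark the 15 bases of the motif.
Ccnd1, chr7:152125563-152125592, minus strand, codons 5 to 9 in capitals: caccagCTCCTGTGCTGCGAAgtggagacc
Ccnd2, chr6:127100762-127100791, minus strand, codons 3 to 7 in capitals: atggagCTGCTGTGCTGCGAGgtggacccg
Ccnd3, chr17:47730604-47730633, plus strand, codons 3 to 7 in capitals: atggagCTGCTGTGTTGCGAGggcacccgg
Over the 15 bases, Ccnd2 and Ccnd3 shared 14, Ccnd1 and Ccnd2 shared 13, and Ccnd1 and Ccnd3 shared 12. Each window lies within 1 coding exon.

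Ccnd1 encodes cyclin D1, the D cyclin most closely tied to mitogen signals. At T0 it stood at 230.5, 219 and 976 CPM in replicates 1, 2 and 3. The T1 libraries held 85.7, 83.3 and 66.6 CPM, the T2 libraries 107, 109.9, 83.7 and 96.6 CPM, and T3 replicates 1 and 4 held 188 and 365 CPM. Every T1 and T2 library lay below every T0 library, T0 replicate 3 was more than 4 times as high as its fellows, and the T3 libraries overlapped the T0 range. Its log2 change from T0 was -2.60 at T1 (± 0.61 SE, with an edgeR adjusted p of 0.019) and -2.24 at T2 (± 0.50 SE, with an edgeR adjusted p of 0.0075). With T0 replicate 3 left out it was smaller, -1.52 at T1 (SE 0.11) and -1.16 at T2 (SE 0.11). These SEs take the T0 spread from replicates 1 and 2 alone. The T1 call was lost without any 1 of the T1 libraries (edgeR adjusted p from 0.071 to 0.082).

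From T1 to T2 the log2 difference of Ccnd1 was 0.35 (edgeR adjusted p = 0.27), and with the replicate number as a block it was 0.36 and passed (edgeR adjusted p = 0.029). From T2 to T3 Ccnd1 rose by 1.48 on the log2 scale (± 0.23 SE, with an edgeR adjusted p of 0.039), and both T3 libraries lay above every T2 library. This call was lost when any 1 of the 4 T2 libraries was left out (edgeR adjusted p from 0.0697 to 0.149). With a single T3 library, assumed to vary like the T2 libraries, the rise was 1.88 without T3 replicate 1 and 0.91 without T3 replicate 4. Against T0, Ccnd1 at T3 had a log2 fold change of -0.76 (± 0.75 SE, with an edgeR adjusted p of 0.56), which became 0.32 without T0 replicate 3 (edgeR adjusted p = 0.51), so the data give no direction for T3 against T0. Ccnd1 lies at chr7:152115836-152125774 (minus strand, mm9), and 818 exonic bases are shared with Oraov1 on the opposite strand. The strand setting of the counting is not given in the sources used here, so reads of the shared stretch cannot be assigned.

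Ccnd2, at chr6:127075797-127101066 (minus strand) and encoding cyclin D2, had 544, 585 and 884 CPM at T0. It held 111, 118 and 69.4 CPM at T1, 144, 208, 96.8 and 139 CPM at T2, and 120.3 and 237 CPM at T3. All 9 later libraries lay below all 3 T0 libraries. The log2 fold change was -2.76 at T1 (± 0.28 SE, with an edgeR adjusted p of 0.00095), -2.18 at T2 (± 0.27 SE, with an edgeR adjusted p of 0.00045) and -1.89 at T3 (± 0.39 SE, with an edgeR adjusted p of 0.053). Leaving out T0 replicate 3 moved these to -2.51, -1.93 and -1.64, and the last then passed the threshold (edgeR adjusted p = 0.033). Between T1 and T2 the log2 difference was 0.58 (edgeR adjusted p = 0.40), a value that passed with the replicate block (edgeR adjusted p = 0.028). Between T2 and T3 it was 0.28 (95% interval -0.44 to 1.01).

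Ccnd3 encodes cyclin D3, which is known for persisting in many tissues as cells mature. Its levels were 35.9, 27.1 and 40.5 CPM at T0, 48.9, 46.0 and 46.6 CPM at T1, 54.5, 52.5, 62.8 and 49.5 CPM at T2, and 67.7 and 54.1 CPM at T3. Every later library lay above every T0 library. The log2 fold change of 0.45 at T1 did not pass the threshold (± 0.17 SE, with an edgeR adjusted p of 0.079), the rise of 0.68 at T2 did (± 0.16 SE, with an edgeR adjusted p of 0.00996), and the value of 0.84 at T3 did not (± 0.23 SE, with an edgeR adjusted p of 0.088). All 3 values passed without T0 replicate 3, at 0.58, 0.82 and 0.97. Ccnd3 lies at chr17:47642000-47736632 (plus strand) and shares 353 exonic bases with Bysl on the opposite strand.

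**Figure D2:**
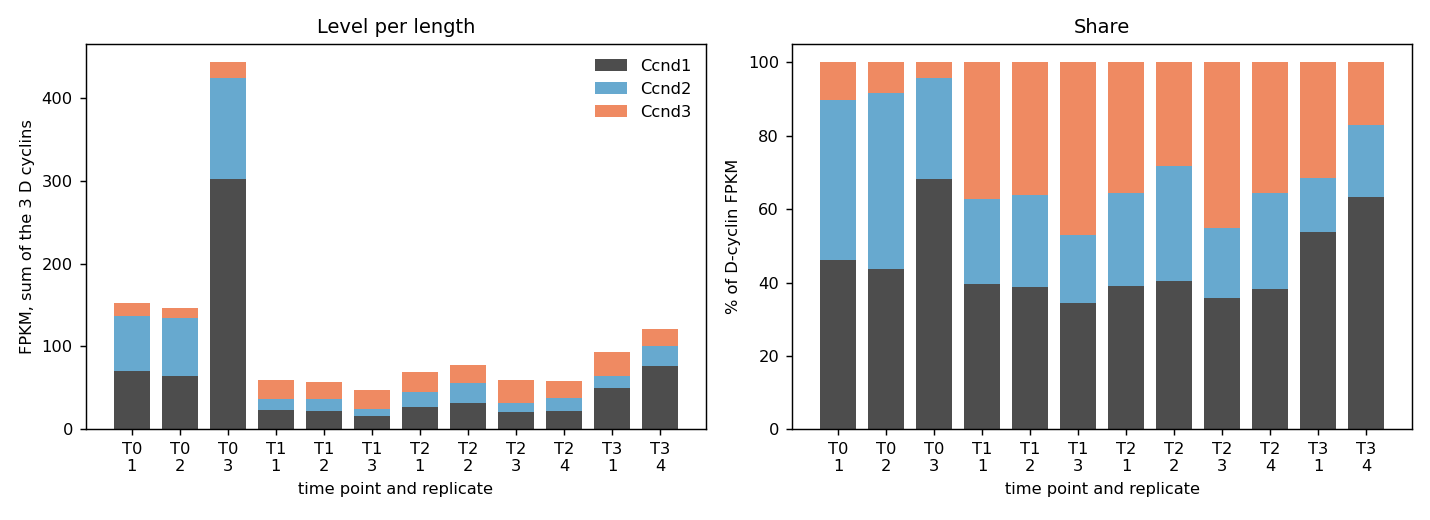
Left, FPKM of Ccnd1, Ccnd2 and Ccnd3 stacked for each library (vertical axis from 0). Right, the share of each in their sum (percent). The sum is 443 FPKM in T0 replicate 3 and 47.0 to 77.3 FPKM in the T1 and T2 libraries, and Ccnd3 takes a larger share in every later library than in any T0 library.

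The D cyclins can be set side by side per transcript length. Their summed FPKM was 152, 146 and 443 at T0, 59.2, 57.3 and 47.0 at T1, 69.0, 77.3, 58.9 and 58.9 at T2, and 93.8 and 121 at T3. Ccnd3 made up 10.3%, 8.32% and 4.39% of that sum at T0, 36.2% to 47.0% at T1, 28.4% to 45.2% at T2, while T3 gave 31.4% and 17.0%. Ccnd1 made up 46.1%, 43.7% and 68.3% at T0, 34.5% to 39.5% at T1, 35.8% to 40.4% at T2, while T3 gave 53.7% and 63.3%. The Ccnd1 share at T1 and T2 lay below all T0 libraries, with mean differences of -15.1 and -14.3 percentage points, or -7.29 and -6.51 points without T0 replicate 3. Taken from CPM, which is not per length, the differences were -0.35 and -2.12 points. In the exact two-sided permutation test T1, T2 and T3 had p = 0.1, 0.057 and 0.6 (adjusted for 3 comparisons, 0.15, 0.15 and 0.6), where the smallest p these group sizes allow is 0.1, 0.057 and 0.2.

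Cdk4, a kinase that the D cyclins activate, was not called by edgeR in any comparison of its 2 groups. It stood at 654, 641 and 781 CPM at T0, 617, 556 and 672 CPM at T1, 581, 504, 586 and 548 CPM at T2, and 539.5 and 611 CPM at T3. The T1 libraries overlapped those of T0, and the T2 and T3 libraries lay just below. In edgeR the log2 fold change was -0.18 at T1 (95% interval -0.51 to 0.16), -0.30 at T2 (-0.58 to -0.03, edgeR adjusted p = 0.069) and -0.25 at T3 (-0.69 to 0.19). The estimates were -0.08, -0.21 and -0.15 without T0 replicate 3. At T2 Cdk4 was called lower by DESeq2 (-0.32, adjusted p = 0.042) and in 1 edgeR fit of all libraries (-0.31, adjusted p = 0.042). Cdk4 lies at chr10:126500590-126504976 (plus strand) and shares 604 exonic bases with Tspan31 on the opposite strand. In FPKM it was the highest of the 10 genes at every time point, with means of 1022, 895, 761 and 759.

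Cdk6, the other D-cyclin kinase, was scarce. It had 7.20, 5.65 and 5.29 CPM at T0, 15.3, 15.2 and 7.01 CPM at T1, 8.89, 15.5, 6.73 and 7.62 CPM at T2, and 5.95 and 4.09 CPM at T3. The T1 and T2 libraries were spread widely and overlapped those of T0. Its log2 fold change at T1 was 1.04 (± 0.33 SE, with an edgeR adjusted p of 0.051), and it passed the threshold without T0 replicate 3 (0.94, adjusted p = 0.042) and without T1 replicate 3 (1.33, adjusted p = 0.016). The values at T2 and T3 were 0.69 and -0.25 (edgeR adjusted p = 0.10 and 0.67), or 0.60 and -0.33 without T0 replicate 3. The gene lies at chr5:3343893-3523218 (plus strand) and shares 60 exonic bases with Gm17590 on the opposite strand. Cdk6 made up 0.124% to 0.585% of the FPKM of Cdk4 and Cdk6 together over the 12 libraries.

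**Figure D3:**
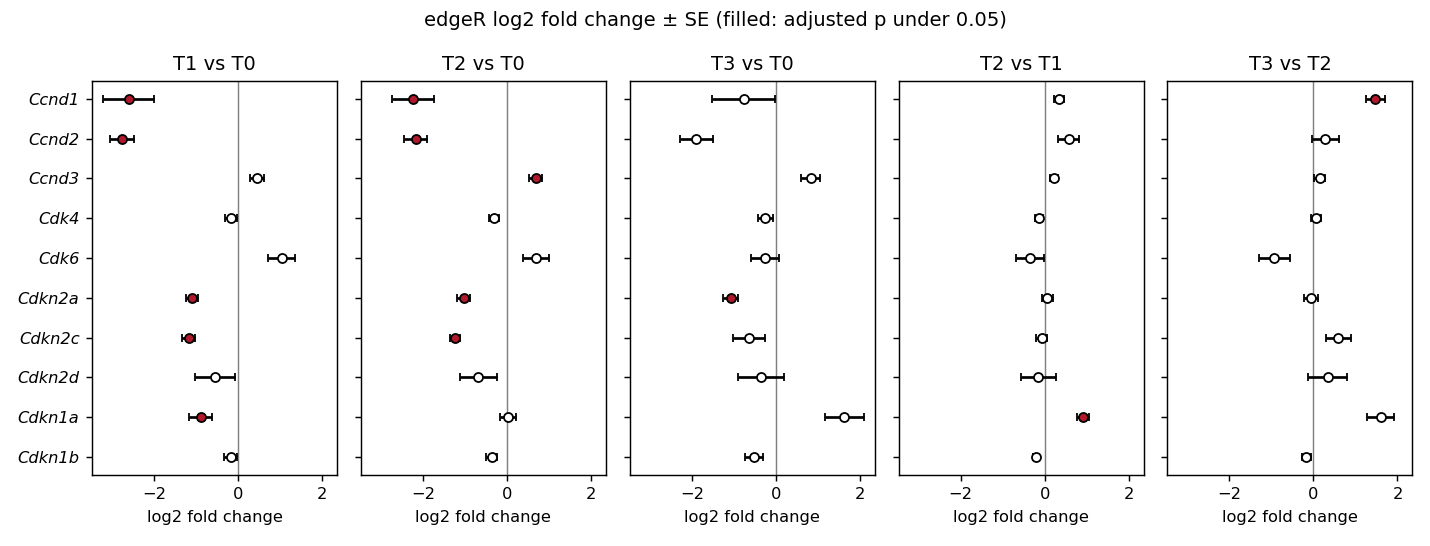
log2 fold change ± SE (horizontal axis) of the 10 genes in 5 comparisons, filled where the edgeR adjusted p was under 0.05. Ccnd1, Ccnd2, Cdkn2a and Cdkn2c lie left of 0 at T1 and T2, Ccnd3 lies right of it, and Cdk4 and Cdkn1b stay close to it.

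Among the Ink4 inhibitors, Cdkn2a and Cdkn2c fell at T1 and were lower than at T0 at T2 as well. Cdkn2a encodes p16Ink4a and, from another first exon and reading frame, p19Arf, which acts upstream of p53. Its levels were 80.0, 79.1 and 95.9 CPM at T0, 42.0, 34.3 and 42.8 CPM at T1, 41.2, 31.9, 44.9 and 46.8 CPM at T2, and 37.6 and 42.2 CPM at T3. The T0 libraries lay apart above all others. The log2 fold change was -1.10 at T1 (± 0.14 SE, with an edgeR adjusted p of 0.0022), -1.03 at T2 (± 0.15 SE, with an edgeR adjusted p of 0.0011) and -1.07 at T3 (± 0.17 SE, with an edgeR adjusted p of 0.033), and without T0 replicate 3 it was -1.003, -0.93 and -0.98. The T3 call was lost without T0 replicate 1, T0 replicate 2, T3 replicate 1 or T3 replicate 4 (edgeR adjusted p from 0.099 to 0.25), while the value kept between -0.98 and -1.17.

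Cdkn2a lies at chr4:88920377-88940557 (minus strand, mm9). The counts are per gene and cannot separate p16Ink4a from p19Arf. In GENCODE vM1 the transcripts of Cdkn2a begin at chr4:88928096 and, upstream of it on the minus strand, at chr4:88940523 and chr4:88940557, and their later exons are shared. The RefSeq promoter windows (GRCm38.p6, 250 bases before to 50 after each start) were searched on both strands for the E2F motifs TTTCCCGC, TTTCGCGC, TTTGCCGC and TTTGGCGC. Of 32851 windows, 744 (2.26%) held at least 1. The table has windows for 8 of the 10 genes, 12 windows in all, and none for Ccnd1 or Ccnd2. The 1 member with a match was Cdkn2a, which held the motif, in the window chr4:89294570-89294869 at the upstream start. It is shown as the 1 match among the members, with the motif in capitals, beginning 99 bases before the start.
Cdkn2a, chr4:89294700-89294729 of GRCm38.p6, minus strand: ctctgggaagcTTTCCCGCgcgactgggga
A match of letters is a description of the sequence and shows no binding. Cdkn2a fell at T1 and T2, as the E2F targets described below did, but their courses parted later. From T2 to T3 the median of those targets was 1.35 on the log2 scale and the value of Cdkn2a was -0.05. Cdkn2c also fell at T1 and T2, and its windows held no match. Whether the motif bears on these courses was not tested.

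Cdkn2c, encoding p18Ink4c, an inhibitor of Cdk4 and Cdk6 in proliferating neural precursors, lies at chr4:109333481-109339794 (minus strand). It had 31.4, 29.9 and 32.3 CPM at T0. The later levels were 16.2, 11.4 and 13.8 CPM at T1, 12.04, 12.6, 14.47 and 13.0 CPM at T2, and 11.6 and 28.0 CPM at T3. The T0 libraries agreed closely and lay above all others, and T3 replicate 4 came near them while T3 replicate 1 lay just under the T2 libraries. Relative to T0 the change (log2) was -1.18 at T1 (± 0.16 SE, with an edgeR adjusted p of 0.0028), -1.24 at T2 (± 0.12 SE, with an edgeR adjusted p of 0.00016) and -0.65 at T3 (± 0.38 SE, with an edgeR adjusted p of 0.33). These became -1.15, -1.22 and -0.63 without T0 replicate 3, and the T3 value was -0.13 without T3 replicate 1 and -1.43 without T3 replicate 4. Between T2 and T3 the value of Cdkn2c was 0.59 (edgeR adjusted p = 0.38), but 1.11 without T3 replicate 1 (edgeR adjusted p = 0.0065) and -0.19 without T3 replicate 4.

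Cdkn2d, encoding p19Ink4d, an inhibitor known to persist in postmitotic neurons, was close to the detection limit. It had 9, 24 and 23 counts at T0, 11, 7 and 20 at T1, 7, 7, 15 and 10 at T2, and 13 and 9 at T3. The groups overlapped, and a change was not detectable at this depth, with log2 fold changes of -0.55 (95% interval -1.68 to 0.57), -0.68 (-1.69 to 0.33) and -0.34 (-1.69 to 1.002). They were -0.38, -0.53 and -0.18 without T0 replicate 3. The gene lies at chr9:21092907-21095653 (minus strand). Cdkn2d had the lowest mean FPKM of the 10 genes at every time point. The remaining Ink4 gene, Cdkn2b, which encodes p15Ink4b, stood at 8.82 to 13.1 CPM at T0 and 6.28 to 7.93 CPM at T1. Its log2 change at T1 was -0.71 (± 0.22 SE, with an edgeR adjusted p of 0.045). At T2 and T3 it was -0.47 and -0.89, neither past the threshold (edgeR adjusted p = 0.12 and 0.15). Without T0 replicate 3 the values at T1, T2 and T3 were -0.86, -0.62 and -1.04, all called.

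The Cip/Kip inhibitors bind cyclins through an RxL motif, shown because Cdkn1a and Cdkn1b share it while their RNA took different courses. The lines give 30 coding bases of NCBIM37. Capitals mark the 15 bases that match RxLFG, the longer pattern searched for, which begins with the RxL. Of these 15 bases, 10 were identical.
Cdkn1a, chr17:29235398-29235427, plus strand, codons 18 to 22 in capitals: gtgtgcCGTTGTCTCTTCGGTcccgtggac
Cdkn1b, chr6:134871019-134871048, plus strand, codons 30 to 34 in capitals: gcctgcAGAAATCTCTTCGGCccggtcaat

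Cdkn1a (chr17:29227924-29237667, plus strand) encodes p21Cip1, a target of p53 and an inhibitor of cyclin E-Cdk2. It stood at 35.9, 35.1 and 60.4 CPM at T0, fell to 19.2, 29.4 and 22.4 CPM at T1, held 49.0, 43.0, 41.5 and 43.1 CPM at T2, and reached 71.3 and 196 CPM at T3. Every T1 library was below every T0 library, the T2 libraries lay within the T0 range, and the T3 libraries lay above all others but far from each other. The log2 fold change at T1 was -0.89 (± 0.27 SE, with an edgeR adjusted p of 0.042), and -0.58 without T0 replicate 3 (edgeR adjusted p = 0.015). It did not pass without any 1 of the T1 libraries (edgeR adjusted p from 0.067 to 0.14).

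From T1 to T2 Cdkn1a rose by 0.91 on the log2 scale (± 0.14 SE, with an edgeR adjusted p of 0.027), with all 4 T2 libraries above all 3 T1 libraries. Left out singly, T1 replicates 1 and 3 and T2 replicates 1 and 4 each ended this call (0.78 to 0.92, edgeR adjusted p from 0.055 to 0.14). With the replicate number as a block, edgeR gave 0.93 (adjusted p = 0.031). At T2 against T0 the value of Cdkn1a was 0.03 (± 0.20 SE, with an edgeR adjusted p of 0.93), and 0.33 without T0 replicate 3 (edgeR adjusted p = 0.019).

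At T3 against T0 the value of Cdkn1a was 1.63 (SE 0.46), which did not pass the threshold (edgeR adjusted p = 0.097). Without T0 replicate 3 it was 1.93, just past it (edgeR adjusted p = 0.0498), and it was 2.19 without T3 replicate 1 and 0.71 without T3 replicate 4, neither past it. Against T2 the value was 1.60 (± 0.31 SE, with an edgeR adjusted p of 0.053), or 2.16 without T3 replicate 1 and 0.68 without T3 replicate 4. Cdkn1a made up 21.2%, 20.5% and 42.8% of the Cip/Kip FPKM (Cdkn1a plus Cdkn1b) at T0, 15.2% to 20.8% at T1, 30.8% to 35.7% at T2, while T3 gave 48.5% and 70.4%.

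Cdkn1b (chr6:134870419-134875531, plus strand) encodes p27Kip1, the inhibitor most often linked to withdrawal of neural precursors from the cycle, and its RNA was not called higher by edgeR in any comparison. The T0 libraries held 169.9, 181 and 123 CPM, those of T1 139, 144 and 137 CPM, those of T2 113, 119, 123 and 129 CPM, and those of T3 102 and 114 CPM. T0 replicate 3 lay below the T1 libraries and the other T0 libraries above them. The log2 fold change was -0.18 at T1 (± 0.16 SE, with an edgeR adjusted p of 0.41), -0.36 at T2 (± 0.14 SE, with an edgeR adjusted p of 0.063) and -0.53 at T3 (± 0.21 SE, with an edgeR adjusted p of 0.19). Without T0 replicate 3 it was called lower at every time, at -0.33 (adjusted p = 0.0066), -0.51 (adjusted p = 0.00048) and -0.68 (adjusted p = 0.024). At T2 it was also called lower with all T0 libraries by DESeq2 (-0.38, adjusted p = 0.042), in 1 edgeR fit of all libraries (-0.37, adjusted p = 0.025) and in the 3 limma fits on FPKM (adjusted p = 0.021 to 0.022). The 1 fit of all libraries called it lower at T3 as well. The relative Cdkn1c, encoding p57Kip2, had at most 1 count in any library and was not tested.

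**Figure D4:**
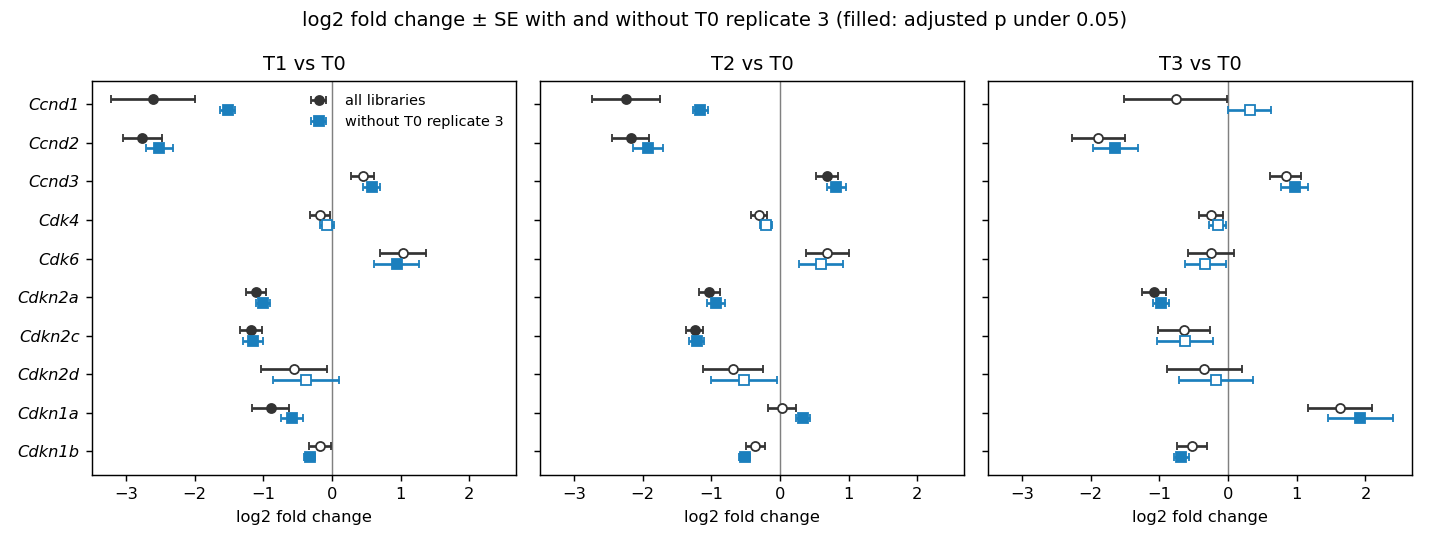
log2 fold change ± SE (horizontal axis) of the 10 genes against T0 with all libraries (circles) and without T0 replicate 3 (squares), filled where the edgeR adjusted p was under 0.05. Ccnd1 moves from -2.60 to -1.52 at T1 and from -0.76 to 0.32 at T3, and Cdkn1b is filled only without that library.

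Set against each other per transcript length, the members stood in another order after T0. The mean FPKM of Ccnd1 at T0 (146, SD 136, n = 3) came second to Cdk4, ahead of Cdkn2a (87.0) and Ccnd2 (85.8), but its spread reached across both. At T1 Cdkn1b (43.8 ± 0.58, SD, n = 3) and Cdkn2a (39.6 ± 5.23, SD, n = 3) came after Cdk4, and Ccnd3 (21.6), Ccnd1 (20.6), Ccnd2 (12.2), Cdkn2c (10.6) and Cdkn1a (9.59) followed. At T3 Ccnd1 (63.6 ± 18.7, SD, n = 2) and Cdkn1a (49.2 ± 29.6, SD, n = 2) came next after Cdk4, with ranges that overlapped. The summed FPKM of the D cyclins divided by that of the 5 inhibitors was 0.897, 0.865 and 2.10 at T0, 0.436 to 0.581 at T1, 0.555 to 0.845 at T2, while T3 gave 0.912 and 0.794. All T1 and T2 libraries lay below the T0 libraries in this ratio, and at T3 replicate 1 lay among the T0 libraries and replicate 4 below them.

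Downstream of the members stand the genes of S phase entry. The proliferation marker Mki67 had 571, 607 and 859 CPM at T0, 84.6, 53.6 and 31.5 CPM at T1, 94.9, 113, 44.2 and 57.0 CPM at T2, and 197 and 312 CPM at T3. Its log2 change from T0 was -3.59 at T1 (edgeR adjusted p = 0.0011), -3.12 at T2 (edgeR adjusted p = 0.00023) and -1.40 at T3 (edgeR adjusted p = 0.058), or -3.39, -2.91 and -1.19 without T0 replicate 3, when the T3 value passed (edgeR adjusted p = 0.033). Both T3 libraries lay above all T2 libraries, as they did for Ccnd1 and Cdkn1a, with a difference of 1.72 (edgeR adjusted p = 0.054). Of 10 E2F targets of S phase entry, 10 were called lower at T1, beside 16.8% of all genes, and 10 at T2, beside 21.8%. At T3 none of these targets passed the threshold, beside 1.41% of all genes called lower. Their median log2 fold change was -3.31, -2.84 and -1.40. Between T2 and T3 it was 1.35, with 2 called higher, Rrm2 and Cdt1, beside 0.5% of all genes. Over all genes, edgeR called 87 lower and 63 higher from T2 to T3. Without T2 replicate 1, 2, 3 or 4 these became 12 and 3, 7 and 5, 12 and 3, or 0 and 1. Most T2 to T3 calls over all genes were thus lost whichever T2 library was left out. This limit holds for the T2 to T3 calls here and below. Cdt1, the licensing factor for DNA replication, changed by -4.02 at T1, and Mcm5, a subunit of the replicative helicase, by -3.14.

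Cyclin E and its kinase act after the D cyclins. Of the 4 genes of that step, 3 were called lower at T1 and 4 at T2, and at T3 none was. The shares of all genes called lower were 16.8%, 21.8% and 1.41%. Ccne1, encoding cyclin E1, changed by -2.14 at T1 (edgeR adjusted p = 0.0072), and by -1.58 at T2, was at -0.37 at T3 without passing, and rose by 1.20 from T2 to T3 (edgeR adjusted p = 0.044). Ccne2 was at -2.74, -1.9997 and -1.06 and the kinase Cdk2 at -1.42, -1.51 and -1.17, where the T3 values did not pass. Cdc25a, the phosphatase that activates Cdk2, was at -0.88 at T1, short of the threshold (edgeR adjusted p = 0.061), and at -0.85 at T2, but at -0.44 and -0.42 without T0 replicate 3, both called. Ccne1 at T3 became 0.11 without that library. Of 4 genes of CDK assembly and activation, Cdk7, which phosphorylates CDKs, rose in the counts at T1 and T2 (0.51 and 0.49). Its mean FPKM went the other way, from 13.3 at T0 to 11.7 at T1 and 10.1 at T2. Cdc37, a chaperone of Cdk4, fell (-0.48 and -0.64). Ccnh and Mnat1, the partners of Cdk7, did not pass at any time, with or without T0 replicate 3.

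Of the 3 pocket proteins Rbl1 (p107) was the 1 called. It fell by 2.67 on the log2 scale at T1 (edgeR adjusted p = 0.00051) and 2.46 at T2. Rb1 held 51.9, 54.4 and 21.9 CPM at T0 and 57.1 to 66.6 CPM at T1, and its T1 value of 0.53 did not pass (edgeR adjusted p = 0.24). Rbl2 (p130), with 80.8, 84.6 and 35.8 CPM at T0, was at 0.31 and 0.16, also short of the threshold. Without T0 replicate 3 these became 0.22 for Rb1 at T1, and 0.01 and -0.15 for Rbl2. Of 10 E2F factors and their partners, 8 were called lower at both T1 and T2, and at T3 there was 1, E2f1 (-1.52, edgeR adjusted p = 0.041). E2f1 stood at -2.10 and -1.85 at T1 and T2. Among the 4 with the highest levels, Tfdp1 fell at T1 and T2 (-1.07 and -1.08), E2f3 fell less (-0.70 and -0.58), and Tfdp2 and E2f4 did not pass. Of 7 MuvB, B-Myb and FoxM1 genes, those called lower numbered 4, 5 and 0 at T1, T2 and T3, with Foxm1 at -2.98 at T1. The counts of this paragraph stand beside 16.8%, 21.8% and 1.41% of all genes called lower at T1, T2 and T3. Rbbp4, a shared histone chaperone, was at -0.46 at T1, short of the threshold (edgeR adjusted p = 0.06) but called without T0 replicate 3 (-0.29).

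**Figure D5:**
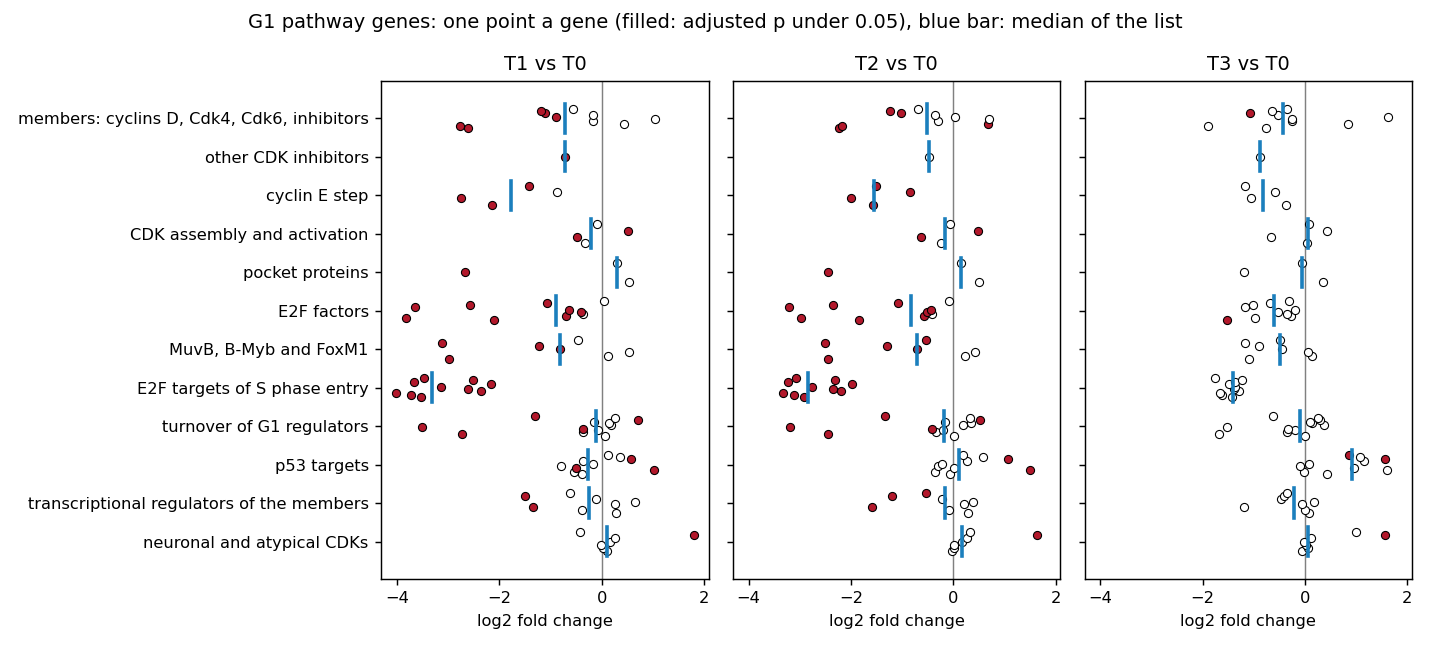
log2 fold change (horizontal axis) of each tested gene (points) of the members and of 11 G1 pathway lists at T1, T2 and T3 against T0, filled where the edgeR adjusted p was under 0.05, with a bar at each list's median. The E2F targets have the lowest median at every time, -3.31, -2.84 and -1.40, and the p53 targets the highest at T3, 0.91.

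Of 12 genes for the turnover of G1 regulators, most of them parts of ubiquitin ligases, edgeR called 4 lower and 1 higher at T1 and again at T2. Skp2, which marks p27Kip1 for destruction, changed by -1.31 and -1.33 (edgeR adjusted p = 0.013 and 0.0031), and Cul1 and Skp1a of the same complex did not pass. Without T0 replicate 3 Skp2 was at -0.93 and -0.95, and Skp1a was called higher at both times and Cul1 lower at T1. Gsk3b, a kinase that primes cyclin D1 for export and decay, rose by 0.71 and 0.52, the latter not called without T0 replicate 3 (0.38, edgeR adjusted p = 0.051), and Ddb1 fell by 0.37 and 0.41. These counts of turnover genes stand beside 16.8% of all genes lower at T1 and 21.8% at T2, and 15.1% and 21.4% higher.

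Of the 10 p53 targets other than Cdkn1a, 1 was lower and 2 were higher at T1, and 2 were higher at T2 and at T3. At T1 and T2 the shares of all genes called higher, 15.1% and 21.4%, are near those counts, and at T3 the share was 3.31%. The median was -0.27, 0.11 and 0.91. Ccng1 had 192 to 199.8 CPM at T0, 132 to 147 CPM at T1, 168 to 225 CPM at T2, and 276 and 482 CPM at T3, with a fall at T1 (-0.50, edgeR adjusted p = 0.010). Zmat3 rose at T3 (0.85, edgeR adjusted p = 0.042), Trp53inp1 and Bax did not pass at any time with all libraries, and Mdm2, the p53 ubiquitin ligase, was at -0.18, -0.22 and 0.08. Sesn2 and Bbc3 were the 2 called higher at T1 and T2. At T3 Sesn2 and Zmat3 were called. Without T0 replicate 3, 6 p53 targets were called higher at T3, beside 9.94% of all genes.

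Of 8 tested regulators of the members, 2, 3 and 0 were called lower, beside 16.8%, 21.8% and 1.41% of all genes. Myc, a transcription factor known to raise Ccnd2 and repress Cdkn1a, changed by -1.49 at T1 (edgeR adjusted p = 0.0078), and by -1.20 at T2, was at -0.41 at T3 without passing, and rose from T2 to T3 (0.79, edgeR adjusted p = 0.049). Ezh2, a Polycomb methyltransferase, was at -1.35, -1.59 and -1.19, with the T3 value short of the threshold (edgeR adjusted p = 0.055). Bmi1, a Polycomb repressor of Cdkn2a, was at 0.28, 0.28 and 0.09 and did not pass, but without T0 replicate 3 it was called higher at T1 (0.42) and T2 (0.41). Trp53 was at -0.62, -0.54 and -0.36 and passed at T2, and without that library it was at -0.35, -0.28 and -0.10 and passed at T1 and T2. Myc without it was at -1.11, -0.82 and -0.03. Of 7 neuronal and atypical CDK genes, Cdk5r1, the p35 activator of neuronal Cdk5, was the 1 called, higher at all 3 times (1.80, 1.64 and 1.57), and Cdk16, Cdk17 and Ccny did not pass at any time with all libraries.

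Leaving out T0 replicate 3 kept the 10 E2F targets called lower at T1 and T2, and at T3 it brought 2 of them under the threshold. For the cyclin E step the counts lower were 4, 4 and 0 at the 3 times, and for the E2F factors 8, 8 and 3. The p53 targets gave 3 lower and 2 higher at T1 and 4 higher at T2, the turnover genes 5 lower at T1 and at T2, and the regulators 4, 4 and 2 lower. Neuronal and atypical CDK genes called higher numbered 4, 3 and 2. These edgeR calls stand beside the larger shares of all genes called without that library. At T1, T2 and T3 these were 24.9%, 25.3% and 8.49% lower and 25.2%, 26.7% and 9.94% higher.

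For each member called against T0, the non-member genes most like it were taken by Pearson's r of log2 CPM over the 12 libraries, among 11520 genes. Since all points share the same libraries, r is a description. Ccnd1 was most like Mthfd2 (0.985), Nptx1 (0.984) and Mbnl1 (0.984). Ccnd2 was most like Sass6 (0.983), Ank2 (0.979) and Orc1 (0.978), and Ccnd3 like Nudt11 (0.966), Mapk7 (0.952) and Sh3gl3 (0.945). Cdkn2a was most like Polr1c (0.987), Nudt9 (0.975) and Tnfaip8 (0.975), and Cdkn2c like Itga5 (0.974), 4930579G24Rik (0.965) and Haus5 (0.962). For Cdkn1a the nearest were Phlda3 (0.953), Ccng1 (0.951) and Pmp22 (0.933), of which Phlda3 and Ccng1 were in the p53 target list.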

How the data were processed

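PolyA RNA of ANS cells was sequenced by the authors from TruSeq v2 libraries on a HiScanSQ. Reads were aligned to mm9 with TopHat 2.0.6 and Bowtie 0.12.7.0, and the submitters' processing notes also name HTSeq 0.6.0, DESeq2 1.0.0 and CASAVA 1.8. The deposited counts per gene were raw, over 22609 genes, and 5 further entries that name no gene entered neither library sizes nor tests. Reads outside genes made up 13.3% to 24.1% of those aligned once, and ambiguous reads 0.681% to 0.903%. The deposited FPKM values, per gene and library, were made by the authors with a tool and a strand setting not given in the sources used here. The FPKM column of T3 replicate 4 carries an additional 2 in its name that the labels do not explain.

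Samples were grouped by the labelled differentiation time. The labels place T3 10 days after the change to medium B, and the study's text counts its 10 days from T2. Each comparison used the libraries of its 2 groups. Counts were normalised by TMM and filtered with filterByExpr, then tested by quasi-likelihood in edgeR 4.0.16 (R 4.3.3) with Benjamini-Hochberg adjustment over all genes tested and a threshold of 0.05. The SE is the size of the log2 fold change divided by the square root of F. The steps were tested on simulated data. Alternatives were RLE size factors, DESeq2 1.42.0, no filter, at least 10 counts in every library, 1 fit of all libraries, limma 3.58.1 on log2(FPKM + 1) or log2(FPKM + 0.1) with a minimum mean FPKM of 1 or none, the replicate number as a block, only libraries numbered 1 and 2, and each library left out.

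Same-numbered libraries deviated together between T1 and T2 (correlation of deviations over genes 0.315, 0.46 and 0.224). T2 replicate 4, which has no T1 library of its number, gave 0.467 with T1 replicate 3, above all of these. The numbers were taken to pair these groups as a reading of the data, not of the labels, and the pairing is uncertain. Same-numbered libraries did not deviate together against T0 (-0.174 to 0.155).

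The 10 members and all lists were chosen with earlier results of these data known. Named genes were all members, Mki67, in each pathway list the 4 genes with the highest mean CPM plus 12 genes of known G1 roles (Ccne1, Ccne2, Cdk2, Cdkn1c, Cdkn2b, Rb1, Rbl1, Rbl2, E2f1, Trp53, Mdm2 and Skp2), and for each called member the 3 genes with the nearest course. Cdt1, Sesn2 and Bbc3 fall outside this rule and were named after their values were seen, as the few called. Positions are from GENCODE vM1 on NCBIM37, the build of the files, and promoters from RefSeq on GRCm38.p6.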

Additional observations from a re-analysis of the deposited data

Results flagged for a closer look

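The following 3 values among the members stood out, none of which was weighed against an explanation. Cdkn2d in T2 replicate 3 had 1.36 CPM (15 counts), and its gap to the nearest T2 library was 0.927 of the whole range of the 4 T2 libraries, above Dixon's 95% critical value for 4 samples. Such a gap appears by chance in about 1 in 20 groups, 11 quantities (the 10 genes and the Ccnd1 share) were examined in the T2 libraries, and Cdkn2d lies near the detection limit. The change of Cdkn1a from T0 differed between T1 and T2 by 0.91 on the log2 scale, tested directly as T2 against T1 (edgeR adjusted p = 0.027). The change of Ccnd1 from T0 differed between T2 and T3 by 1.48, tested as T3 against T2 (edgeR adjusted p = 0.039). Both differences keep the T0 libraries out of the test, and both calls were lost when some single libraries were left out.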

How the results depend on the processing

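Over 761 alternative values of the members, 653 kept direction and side of the threshold, 39 kept direction but no longer passed, 42 newly passed and 27 reversed, the cause of which was not tested. At T1 the 0 higher became 1 with DESeq2 or at least 10 counts (0 to 2 with a library left out). It became 2 in 1 fit of all libraries or with libraries 1 and 2. Over all genes these 4 settings called 2312 of 16645, 1670 of 11464, 2751 of 12952 and 3733 of 12468 higher, in that order. The 5 lower at T1 became 3 with limma and no filter (3 to 6), which called 1175 of 21714 genes lower. At T2 the 1 higher became 0 with limma and no filter and 3 with libraries 1 and 2 (1 to 2). The 4 lower at T2 became 6 with DESeq2 or 1 fit, which add Cdk4 and Cdkn1b (4 to 5 with a library left out). They became 5 in each limma fit and with libraries 1 and 2, which add Cdkn1b. Of all genes at T2, DESeq2 called 3042 of 17564 lower and the 1 fit 3207 of 12952. Libraries 1 and 2 gave 3426 lower and 3441 higher of 12504. At T3 the 1 lower became 2 with DESeq2 or no filter, 3 in 1 fit and 0 in each limma fit (0 to 3), and the 0 higher became 2 with DESeq2 or 1 fit and 1 with no filter (0 to 2). From T1 to T2 the 1 higher became 0 in 1 fit, in each limma fit and with libraries 1 and 2 (0 to 1). From T2 to T3 it became 2 with DESeq2 or no filter, and 0 in 1 fit and each limma fit (0 to 3).

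The Ccnd1 share of D-cyclin FPKM against T0, -15.1, -14.3 and 5.78 percentage points, became -0.35, -2.12 and 17.4 from CPM, which is not per length, and ranged from -19.6 to -7.29, -18.8 to -6.51 and 0.977 to 13.6 with a library left out.

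With the replicate number as a block, 3 members were lower at T1 and 3 at T2, where the numbers do not pair the libraries (Ccnd1 -2.20 and -1.82, adjusted p = 0.054 and 0.079 in edgeR, and Cdkn1a at T1 -0.87, adjusted p = 0.065), 3 were higher from T1 to T2 and 0 from T2 to T3 (Ccnd1 1.37, edgeR adjusted p = 0.14). Over all genes the block turned 2751 lower and 2704 higher at T2 into 1535 and 1622, and 7 and 71 from T1 to T2 into 59 and 187. No paired analysis was possible for T3 against T0 because these groups share only number 1.

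Reversed values were all of members without a call in that comparison. Cdkn1a at T2 against T0 was -0.00399 without a filter, -0.114, -0.116 and -0.114 in the limma fits, and -0.115 to 0.331 with a library left out. Ccnd1 at T3 against T0 ranged from -1.33 to 0.316 in the same way. From T1 to T2, Cdkn2a gave -0.0477, -0.049 and -0.0477 in the limma fits and -0.0436 with libraries 1 and 2, and with the replicate block Cdkn2a was at -0.00575 and Cdkn2d at 0.0187. With a library left out, the ranges from T1 to T2 were -0.0284 to 0.169 for Cdkn2a, -0.191 to 0.0466 for Cdkn2c and -0.421 to 0.171 for Cdkn2d. From T2 to T3 they were -0.303 to 0.696 for Ccnd2, -0.0128 to 0.29 for Ccnd3, -0.0557 to 0.144 for Cdk4, -0.155 to 0.0361 for Cdkn2a and -0.188 to 1.11 for Cdkn2c, and Cdk4 was at -0.00191 in the limma fits.

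Called genes overall at T3 numbered 179 lower and 421 higher, against 945 and 1086 with DESeq2, 1865 and 2000 in 1 fit, and 8 to 77 and 17 to 43 with limma. From T2 to T3 they numbered 87 and 63, against 330 and 430 with DESeq2 and 24 and 18 in 1 fit. Without T2 replicate 1, 2, 3 or 4 the 87 and 63 became 12 and 3, 7 and 5, 12 and 3, or 0 and 1. At T3 against T0, edgeR called 1 lower and 14 higher without T0 replicate 1, and 2 and 13 without T0 replicate 2. Most T3 calls over all genes were therefore lost without either of these libraries. Depth limits Cdkn2d, at 7 to 24 counts a library, and 2 T3 libraries limit every comparison with T3.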
